A study of Drosophila melanogaster with 2 samples.

Results

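The genes described here encode the translation factors and the aminoacyl-tRNA synthetases of Drosophila melanogaster, examined for binding of the transcription factor Onecut in embryos. They were chosen by symbol: every protein-coding gene whose name starts with eIF, eEF or eRF, or holds an abbreviated amino acid name followed directly by RS. The rule gave 89 of the 13945 protein-coding genes on the 6 chromosome arms. These are 44 initiation factor genes (eIF), 8 elongation factor genes (eEF), 2 release factor genes (eRF) and 35 tRNA synthetase genes. Of the synthetase genes, 15 carry the suffix -m, which marks the enzyme of the mitochondrion, and 20 do not. The 20 are called cytoplasmic below by symbol alone, which does not show that each enzyme works only in the cytoplasm.

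Translation starts when initiation factors bring the small ribosomal subunit and the initiator tRNA to a capped messenger RNA and scan it for a start codon. Elongation factors then carry charged tRNAs to the ribosome and move it along the message, and release factors end the chain at a stop codon. The synthetases charge each tRNA with its amino acid, and mitochondria use enzymes of their own, mostly encoded by separate nuclear genes. Onecut belongs to a family of DNA-binding proteins that join a cut domain to a homeodomain, and it is best known in the fly for neuronal expression.

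The flies were of a strain named onecut-GFP, in which an insertion targeted to the onecut gene makes Onecut as a fusion with enhanced green fluorescent protein. Chromatin immunoprecipitation with an anti-GFP antibody, followed by sequencing (ChIP-seq), was done on whole embryos aged 0 to 24 h, so all tissues and embryonic stages were mixed and cannot be told apart. There were 2 biological replicates, which form a single group: every value below describes these embryos and no condition was compared with another. The labels name 1 strain for both replicates and no other genotype or treatment.

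The data are lists of peaks in coordinates of the dm6 build. A summit is the position the list gives as a peak's highest point. The deposited signal is the list's measure of a peak on a scale that is not given, so ranks, percentiles and medians were taken within a list. Values of the 2 replicates stand side by side only as a description. Peaks passed the authors' threshold at an irreproducible discovery rate (IDR, a measure of how well a peak's rank is kept between paired inputs) of 0.01. The main list is the conservative one, made from both replicates, with 6755 peaks. Replicate 1 alone had 5133 peaks past the threshold and replicate 2 alone had 6023. Read depth is unknown. A promoter summit lies no more than 500 bp from a start of transcription (TSS) of the gene, and 2980 summits met this for some protein-coding gene. Intervals in parentheses are 95% Wilson intervals, which cover counting error only, and no test was run.

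The DNA under the member summits shows the letters that the results on motifs turn on. The stretches below are dm6 sequence (Release 6 assembly), given 5′ to 3′ on the gene's strand and kept outside coding sequence, with motif letters in capitals. The capitals mark ATCGAT or ATTGAT, the core bound by Onecut proteins (ATCAAT is ATTGAT read from the other strand), TATCGATA, the element of the factor DREF, and AGTGTGACC, which is GGTCACACT, the Motif 1 of core promoters, on the other strand. The first 4 stretches hold TATCGATA, the next 4 hold a core without it, and the last 2, at strong summits, hold none of these letters. The genes of those 2, IleRS and eEF2, do have ATCGAT outside the printed bases, between 250 bp before and 50 bp after the 5′ end. IleRS also has TATCGATA there. They lie at chr3R:29027201-29027235 on the minus strand for eIF4E6, where the summit itself lay 16 bp further upstream, at chr3R:29220115-29220171 on the plus strand for eEF1gamma, at chr3R:4433896-4433964 on the minus strand for eIF3a and at chrX:16446994-16447067 on the minus strand for eIF2alpha. The next are chr3R:31739561-31739659 on the plus strand for eEF1alpha2, chr3R:24109161-24109261 on the minus strand for eIF4EHP, chr3R:23819252-23819352 on the minus strand for eIF4G2 and chr3R:24252707-24252807 on the minus strand for beta-PheRS. The last are chr3L:22288463-22288563 on the plus strand for IleRS and chr2L:21682092-21682121 on the minus strand for eEF2.
eIF4E6: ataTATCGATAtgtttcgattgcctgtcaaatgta
eEF1gamma: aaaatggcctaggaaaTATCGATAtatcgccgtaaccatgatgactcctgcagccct
eIF3a: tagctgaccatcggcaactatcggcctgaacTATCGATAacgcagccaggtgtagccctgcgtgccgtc
eIF2alpha: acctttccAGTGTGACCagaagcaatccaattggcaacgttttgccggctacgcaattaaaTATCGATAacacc
eEF1alpha2: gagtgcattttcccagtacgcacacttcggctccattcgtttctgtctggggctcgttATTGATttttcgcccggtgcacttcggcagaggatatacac
eIF4EHP: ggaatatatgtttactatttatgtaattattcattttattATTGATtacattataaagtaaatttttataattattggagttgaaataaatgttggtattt
eIF4G2: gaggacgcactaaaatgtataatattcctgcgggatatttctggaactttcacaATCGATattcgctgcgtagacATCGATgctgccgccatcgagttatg
beta-PheRS: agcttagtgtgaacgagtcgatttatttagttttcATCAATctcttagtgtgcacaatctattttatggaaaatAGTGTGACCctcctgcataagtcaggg
IleRS: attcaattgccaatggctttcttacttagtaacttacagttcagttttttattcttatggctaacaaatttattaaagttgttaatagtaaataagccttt
eEF2: cgcctcgctctttcctgtcgaaacgccgtt

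Onecut summits lay at the promoters of 31 of the 89 genes (34.8%, 25.7 to 45.2), against 23.4% of all protein-coding genes. Elongation factor genes had the highest share among the roles with 5 or more genes, at 5 of 8 (62.5%, 30.6 to 86.3), and cytoplasmic synthetase genes had 10 of 20 (50%, 29.9 to 70.1). For the synthetase genes the interval took in the share of all genes in replicate 1 alone (35%, 18.1 to 56.7, against 19.2%), in both single-replicate lists at once (25%, 11.2 to 46.9, against 16.2%) and for summits nearest to the own TSS (30%, 14.5 to 51.9, against 18.7%). The 16 genes for subunits of eIF3, the scaffold of the small subunit, had 2 (12.5%, 3.5 to 36), and mitochondrial synthetase genes had 2 of 15 (13.3%, 3.74 to 37.9). All initiation factor genes together had 13 of 44 (29.5%, 18.2 to 44.2). The intervals of these roles overlap each other, and those of all but the elongation factor and cytoplasmic synthetase genes take in the share over all genes.

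**Figure D1:**
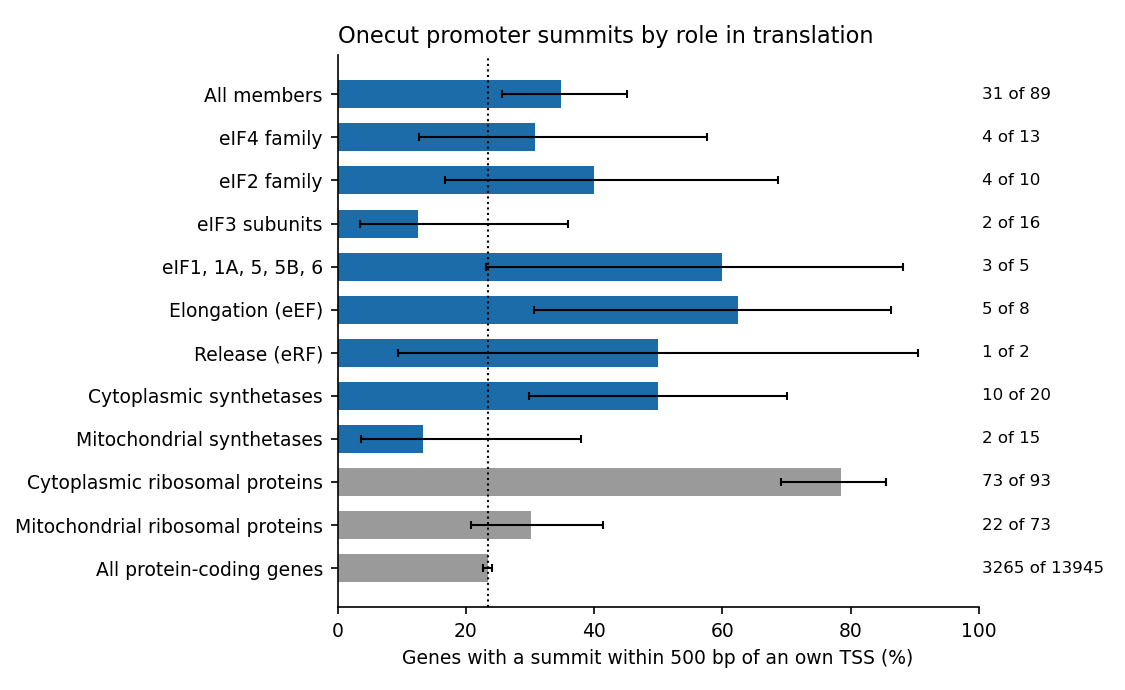
Share of genes, in percent, with an Onecut summit within 500 bp of an own TSS in the conservative list, by role in translation. Bars are shares, error bars are 95% Wilson intervals, the counts stand at the right, blue bars are the translation factor and synthetase genes, grey bars are the ribosomal protein genes and all protein-coding genes, and the dotted line is the 23.4% of all genes. Elongation factor genes (62.5%) and cytoplasmic synthetase genes (50%) lie above the line with their whole intervals, eIF3 subunit genes (12.5%) and mitochondrial synthetase genes (13.3%) lie below it with intervals that cross it, and cytoplasmic ribosomal protein genes reach 78.5%.

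With the wider rule, a summit anywhere from 1000 bp upstream to the end of the gene, 37 members had at least 1 (41.6%, 31.9 to 52), against 31.3% of all protein-coding genes. With no upstream stretch the order turned, with 13 members (14.6%), against 17.3%, and where the member's TSS had to be the nearest there were 23 (25.8%), against 23.6%. The 37 members held 51 summits: 32 at promoters, 6 further upstream, 11 in introns and 2 in coding exons. A summit was the only one of its gene in 31 members, while eIF5B held 5 and eIF4EHP held 6, among them a pair from overlapping peaks. This rule gives long genes more room. Among all protein-coding genes the median length was 4341 bp with a summit and 1755 bp without, whereas among the members it was 2522 bp with a summit and 2500 bp without.

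Among the elongation factors, summits lay at the promoters of both copies of eEF1alpha, the GTPase that delivers charged tRNA, of eEF1gamma, a subunit of its exchange factor complex, of eEF2, the translocase, and of eEF5, the fly name of the factor that carries hypusine. The deposited signal was 722.7 at eEF1gamma, 526.2 at eEF1alpha2, 386.6 at eEF5, 330.4 at eEF1alpha1 and 301.1 at eEF2, all above the median of 160.7 over all promoter peaks. All 5 summits lay within 49 bp of the gene's own TSS: 49 bp upstream at eEF1alpha2, 29 bp upstream at eEF1alpha1, 7 bp upstream at eEF1gamma, 2 bp upstream at eEF5 and 9 bp downstream at eEF2. None of the 5 had the TSS of another protein-coding gene within 500 bp of the summit.

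The same 5 promoters passed the threshold in each replicate alone. In the ranked lists of the single replicates, eEF1gamma had signals of 363.5 in replicate 1 and 360.0 in replicate 2, and eEF1alpha2 had 204.8 and 316.5. eEF5 had 140.4 in replicate 1 and 252.8 in replicate 2, eEF1alpha1 had 159.4 and 172.7, and eEF2 had 140.0 and 169.6. All 10 of these peaks had an IDR of 2.503e-05 or less. The other 3 elongation factor genes differed. eEF1beta, an exchange factor subunit, had a promoter peak of 70.1 in replicate 2 past the threshold and one of 19.5 in replicate 1 that was not (IDR 0.717), and its summit in the conservative list lay 730 bp upstream, nearer to the TSS of Psi (222 bp). eEF1delta, of the same complex, had ranked signals of 12.3 and 17.6, and eEFSec, the factor for selenocysteine, had 11.2 and 37.3, below the threshold in both replicates.

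Of the release factor genes, eRF3, the GTPase partner, had a promoter peak with a signal of 106.6, and eRF1, which reads the stop codon, had ranked signals of only 30.3 and 26.8 in replicates 1 and 2. The eRF3 summit lay 366 bp upstream of its own TSS and 48 bp from that of SC35, a splicing factor gene. It passed in replicate 2 (59.4, IDR 0.00362) and not in replicate 1 (50.3, IDR 0.55).

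**Figure D2:**
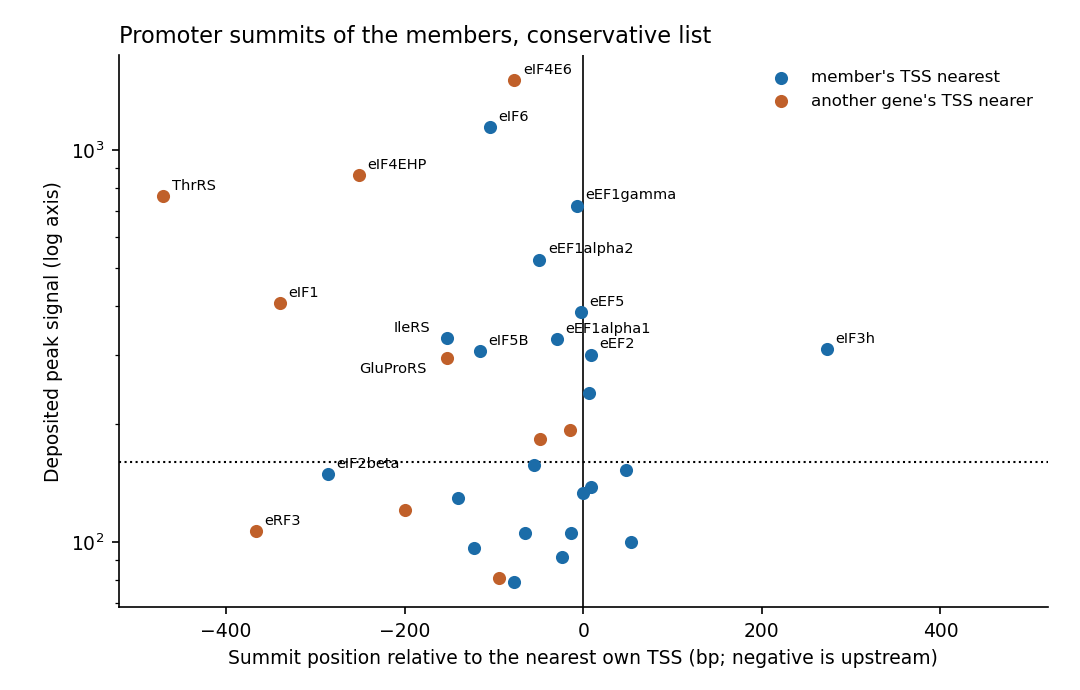
Position of the 32 promoter summits of the members relative to the nearest own TSS (bp, negative upstream) and the deposited peak signal (log axis) in the conservative list. Points are summits, blue where the member's TSS is the nearest and orange where another protein-coding gene's TSS is nearer, and the dotted line is the median signal of 160.7 over all promoter peaks. The elongation factor summits sit within 49 bp of the start, while eIF4E6, eIF4EHP, ThrRS and eIF1, among the strongest, lie nearer to another gene's TSS.

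The cap-binding eIF4 family held the strongest promoter peak of all members, next to copies with none. At eIF4E6, a fly copy of the cap-binding protein, the signal was 1510.3, the peak of rank 42 in the list, with 579.0 in replicate 1 and 925.8 in replicate 2. eIF4EHP, a cap-binding repressor of translation known in the fly embryo for its action on caudal messenger RNA, had 864.8 in the conservative list, 362.0 in replicate 1 and 494.3 in replicate 2. They stood at percentiles 99.0 and 95.8 of all promoter peaks. Neither can be assigned to the eIF4E copy alone. The eIF4E6 summit was 77 bp upstream of its start and 15 bp from the start of CG1951, and the eIF4EHP summit was 251 bp upstream and 125 bp from the start of CG18428.

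The other eIF4E copies showed little. eIF4E1, the general cap-binding protein, had ranked promoter peaks of 33.4 in replicate 1 (IDR 0.0175) and 41.9 in replicate 2 (IDR 0.429), and 74.1 in the ranked list of both replicates at an IDR of 0.0119, just short of the threshold. eIF4E3, eIF4E4, eIF4E5 and eIF4E7 had no promoter peak in the ranked list of either replicate. Of the scaffold copies, eIF4G2, known in the fly for its role in the male germ line, had a peak of 105.2 that lay 65 bp upstream of the shared 5′ end of eIF4G2 and CG33111, whereas eIF4G1 had only a ranked peak of 21.6 in replicate 2. The helicase eIF4A had 157.5 at 55 bp upstream of a TSS and passed in both replicates, with signals of 77.1 and 74.6. Its helper eIF4B passed in replicate 1 alone (80.9) with no ranked peak in replicate 2, eIF4H1 had ranked peaks of 26.5 and 45.5, and eIF4H2 had none.

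Beyond its promoter, eIF4EHP held 5 listed summits in introns, with signals between 29.4 and 555.3. Those of 93.4 and 29.4 came from overlapping peaks. Both matched the same peak in each replicate (40.6 in replicate 1 and 63.9 in replicate 2), so they may be a single site. Its gene spans 45884 bp, and the TSS nearest to all 5 was that of Syx1A, the gene of a syntaxin of the synapse. Likewise the 4 intronic summits of eIF5B, the GTPase that joins the ribosomal subunits, had signals between 84.5 and 166.7 and lay nearest to the TSS of sty, at distances of 6328 to 15090 bp. The promoter summit of eIF5B lay 116 bp upstream of its own start with 308.0, and it passed in both replicates with signals of 146.6 and 173.1.

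Among the genes for delivery of the initiator tRNA, 4 of 10 had promoter summits: eIF2Bgamma (239.7), a subunit of the exchange factor for eIF2, eIF2beta (149.0), eIF2D (129.3), an alternative delivery factor, and eIF2alpha (91.5), the subunit phosphorylated under stress. All 4 lay nearest to the gene's own TSS with no other TSS within 500 bp. Their strength was moderate: the 4 signals fell between percentiles 12.7 and 68.3 of all promoter peaks. eIF2beta and eIF2D passed in both replicates, eIF2Bgamma in replicate 2 (169.1) and not in replicate 1 (67.6, IDR 0.0216), and eIF2alpha in neither alone, with 42.3 and 50.2. The third subunit of eIF2, eIF2gamma, was just outside, with 76.2 at an IDR of 0.0138 in the ranked list of both replicates.

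The strongest peak in any member's window was not at the member's promoter. It lay 678 bp upstream of eIF2Bbeta with a signal of 2898.1, the peak of rank 2 in the whole list, and 41 bp from the TSS of the divergent gene Ugalt, a sugar nucleotide transporter. The replicates had 1509.6 and 1404.5 there. The promoter rule therefore leaves eIF2Bbeta out, as it does ArgRS-m (635 bp upstream, 209.1), eEF1beta, eIF2Bdelta (724 bp upstream, 99.9), eIF5 (539 bp upstream, 77.8, and 45 bp from exd) and HisRS, whose only summit lay in coding sequence 2174 bp into the gene with 216.6. Nearest to the 500 bp limit were ThrRS, counted at 470 bp, and eIF5, not counted at 539 bp.

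Among the remaining initiation factors eIF6 and eIF1 had the highest promoter peaks. eIF6, which keeps the large subunit from joining early and acts in its assembly, had a signal of 1146.6 at 104 bp upstream of its own TSS, with 668.3 in replicate 1 and 475.7 in replicate 2 and no other TSS within 500 bp. eIF1, which guards start codon choice, had 407.0 with 194.4 and 193.0 in the replicates, but its summit lay 340 bp upstream and 41 bp from the divergent start of RpL28, a ribosomal protein gene. A weaker eIF1 summit of 79.5 lay in an intron. eIF1A, a partner of eIF1, had no peak past the threshold.

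Most eIF3 subunit genes lacked a promoter peak in the conservative list, where 12.5% had one, against 23.4% of all protein-coding genes. In the ranked list of both replicates 9 of 16 had one (56.2%, 33.2 to 76.9), against 48%, a share inside that interval. eIF3h had a pair of promoter summits, 311.7 at 273 bp and 152.9 at 48 bp downstream of its start, and a summit of 105.0 in coding sequence. eIF3a had 183.4 at 48 bp upstream, 22 bp from the start of the divergent gene CG1074. Both genes passed in each replicate alone, but the weaker promoter summit of eIF3h did not pass in replicate 1 (IDR 0.117). eIF3c passed in replicate 1 (58.3) and not in replicate 2 (18.6, IDR 0.684), and eIF3k did the reverse, with 67.1 in replicate 2 and 16.2 in replicate 1 (IDR 0.267). Of the duplicated subunits, eIF3f1 had 88.3 at an IDR of 0.0115 in the ranked list of both replicates, close outside the threshold of the conservative list, and it passed with the same signal in the thresholded list from pooled data. eIF3d1 had a ranked peak of 22.5 in replicate 2 alone, and eIF3d2, eIF3f2, eIF3g1 and eIF3g2 had none in the ranked list of either replicate.

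Cytoplasmic synthetase genes with promoter summits were those for threonine, isoleucine, glutamate and proline, serine, asparagine, tryptophan, arginine, lysine and aspartate and the beta subunit for phenylalanine. ThrRS had the highest signal at 763.8, with 241.4 in replicate 1 and 507.0 in replicate 2, but this summit lay 470 bp upstream of ThrRS and 4 bp from the start of Patsas. IleRS had 332.0 at 152 bp upstream of its start, nearer than that of Hem, with 149.7 and 162.0 in the replicates. GluProRS, a fused enzyme for both amino acids, had 294.6, with 166.6 and 123.1, and the start of AP-1sigma was nearer (107 bp, against 153 bp to GluProRS). The other 7 ran from 193.2 at SerRS down to 79.1 at beta-PheRS, the weakest promoter peak of any member. In both single-replicate lists, 5 of the 10 passed: ArgRS, GluProRS, IleRS, SerRS and ThrRS.

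The cytoplasmic synthetase genes sat close to other genes. Another protein-coding gene's TSS lay within 500 bp of an own TSS in 16 of 20 (80%), against 51.7% of all 89 members and 30.9% of all protein-coding genes. Of the 10 with a promoter summit, 6 had a summit nearest to their own TSS (AsnRS, AspRS, IleRS, LysRS, TrpRS and beta-PheRS), which is 30% of the 20, against 18.7% of all genes. Only beta-PheRS had no other gene's TSS within 500 bp of its summit, which is 5%, against 13%. At ArgRS the nearer start was that of CG8578 and at SerRS that of CG17260. Peaks in such shared stretches cannot be assigned to 1 of the 2 genes from these lists.

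Mitochondrial synthetase genes had 2 promoter summits, both weak. PheRS-m had 96.4 at 122 bp upstream with 49.1 and 42.0 in the replicates, of which the second passed alone. LeuRS-m had 81.0 at 94 bp upstream, 72 bp from the start of Dhc64C, the dynein heavy chain gene, and passed in neither replicate alone. A stronger summit of 619.6 lay 838 bp upstream of LeuRS-m and also nearest to Dhc64C. Of 12 amino acids with 1 cytoplasmic and 1 mitochondrial gene, the cytoplasmic gene alone had a promoter summit for 6 (arginine, asparagine, aspartate, isoleucine, serine and tryptophan), the mitochondrial gene alone for leucine, neither for 5 and both for 0. Over all protein-coding genes 23.4% had one. With a summit at only 1 of these 12 mitochondrial genes, the 0 does not show that partner genes exclude each other.

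Across all members, ownership changed the counts. A promoter summit nearest to the member's own TSS was found in 21 members (23.6%, 16 to 33.4), against 18.7% of all protein-coding genes, and a summit with no other gene's TSS within 500 bp in 14 members (15.7%, 9.61 to 24.7), against 13%. In 10 members another gene's start was nearer. Members with a neighbouring TSS within 500 bp had a promoter summit in 41.3% of 46 cases, against 37.9% of all such genes, and members without one in 27.9% of 43 cases, against 16.9%. Of the 32 member promoter summits, 18 (56.2%) had the TSS of another gene within 500 bp, against 27.7% of all promoter summits. These shares are not drawn alike, because a summit shared by neighbouring genes can enter the member set through either of them. Counted by gene, 14 of the 31 members with a promoter summit had one free of any other gene's TSS within 500 bp. Over all protein-coding genes it was 1811 of 3265.

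The replicates gave overlapping sets of members. In replicate 1 alone, 24 members had a promoter summit past the threshold (27%, 18.8 to 37), against 19.2% of all protein-coding genes, and in replicate 2 alone 30 (33.7%, 24.7 to 44), against 21.5%. With the wider rule the counts were 29 in replicate 1 (32.6%), against 26.2%, and 35 in replicate 2 (39.3%), against 28.6%. In both single-replicate lists there were 20 members (22.5%, 15 to 32.2), against 16.2%, and all 20 were also in the conservative list. A ranked promoter peak was present in both replicates for 50 members, and across these the signals had a Spearman rho of 0.80, against 0.86 over 5751 genes. This is a description across genes that share libraries. Replicate 2 had the higher value in 70% of the 50, against 73.9% of the 5751. The median ratio of replicate 2 to replicate 1 was 1.2 for the members, against 1.26, so the 2 lists may differ in scale.

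**Figure D3:**
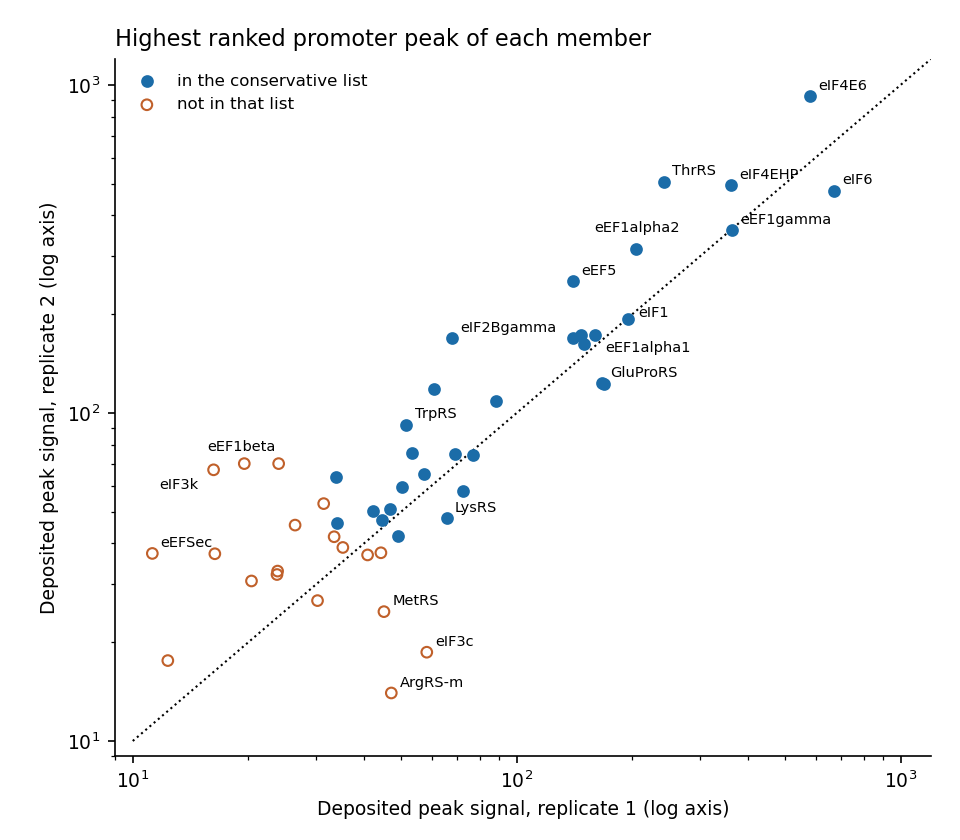
Deposited signal of the highest ranked promoter peak of each member in replicate 1 (horizontal) and replicate 2 (vertical), both on log axes, for the 50 members with such a peak in both. Filled points are members with a promoter summit in the conservative list, open points are the others, and the dotted line marks equal values. The scales of the 2 lists may differ, so this line is a guide only. eIF4E6 is at 579.0 and 925.8 at the top, the filled points lie mostly above the open ones, and eIF3k, eEF1beta, ArgRS-m, eEFSec and eIF3c lie farthest from the line.

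Of the 34 members past the threshold in at least 1 replicate, 14 passed in 1 replicate alone (41.2%), against 33.6% of the 3410 such genes among all protein-coding genes. Replicate 1 alone held AlaRS, LysRS, eIF3c and eIF4B: AlaRS had 40.9 in replicate 1 and 36.9 in replicate 2 (IDR 0.475), and LysRS had 65.7 and 47.8 (IDR 0.0131). Replicate 2 alone held AsnRS, PheRS-m, TrpRS, alpha-PheRS, eEF1beta, eIF2A, eIF2Bgamma, eIF3k, eIF4G2 and eRF3. In that replicate TrpRS had 92.0 with 51.5 in replicate 1, AsnRS had 75.6 with 53.5, alpha-PheRS had 70.0 with 24.0, and eIF2A, an alternative initiation factor, had 61.1 with no ranked promoter peak in replicate 1. Of these 14 members, 7 were not in the conservative list. Conversely AspRS, LeuRS-m, beta-PheRS and eIF2alpha were in the conservative list and in neither replicate's own.

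In 51 members neither the conservative list nor the thresholded list of either replicate held a promoter summit. Among the cytoplasmic synthetase genes these were CysRS, GlnRS, GlyRS, HisRS, LeuRS, MetRS, TyrRS and ValRS, and among the mitochondrial ones all but LeuRS-m and PheRS-m. Among the factors they were eIF1A, eIF2Balpha, eIF2Bbeta, eIF2Bdelta, eIF2Bepsilon, eIF2gamma, eIF4E1, eIF4E3, eIF4E4, eIF4E5, eIF4E7, eIF4G1, eIF4H1, eIF4H2, eIF5, eEF1delta, eEFSec and eRF1, with eIF3b, eIF3d1, eIF3d2, eIF3e, eIF3f1, eIF3f2, eIF3g1, eIF3g2, eIF3i, eIF3j, eIF3l and eIF3m. Of the 51, 26 had a promoter peak of lower rank in at least 1 replicate and 25 had none in either. The same counts over all protein-coding genes are not given here. A promoter summit past the threshold in at least 1 replicate was found in 38.2% of members, against 24.5% of all protein-coding genes. In the ranked list of both replicates 58 members had a promoter peak (65.2%), against 48% of all protein-coding genes. The 27 that were ranked and not in the conservative list had signals from 19.0 to 96.0, which overlaps the range of 79.1 to 1510.3 of the 31 that were. The highest of them was alpha-PheRS, the partner subunit of beta-PheRS, at an IDR of 0.157.

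Summits at member promoters lay close to a start site, of the member or of a neighbour. The median distance to the nearest TSS of any protein-coding gene was 48.5 bp for the 32 member summits, against 97 bp for all 2980 promoter summits, and 68.8% of them lay within 100 bp, against 51.1%. For 10 of the 32 that TSS was another gene's. Over the 22 summits nearest to the member's own TSS the median was 51 bp, and 68.2% lay within 100 bp. Upstream of the start were 68.8%, against 65.9%. The signal had a median of 188.3 at member promoters and 160.7 at all promoters, and the median member peak stood at percentile 58.1. By the single-replicate lists this percentile was 72.4 in replicate 1 and 56.5 in replicate 2.

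Motif letters were counted on both strands in windows reaching 50 bp to either side of the summit. The Onecut core, ATCGAT or ATTGAT, was in 15 of 32 member windows (46.9%, 30.9 to 63.6), against 36.6% of all promoter windows. ATCGAT was in 28.1%, against 22.7%, and ATTGAT in 25%, against 16.2%. The core was in 9 of the 22 windows nearest to the member's own TSS (40.9%) and in 6 of the 10 others (60%). In those 22 windows ATCGAT was in 22.7%, the same as over all promoter windows, and ATTGAT in 18.2%. TATCGATA, which contains ATCGAT, was in 4 of the 32 (12.5%, 4.97 to 28.1), against 3.83%, and these were the windows of eEF1gamma, eIF2alpha, eIF3a and eIF4E6 shown above. This share was 20.8% in the list of replicate 1 alone, against 3.71%, and 18.2% in that of replicate 2 alone, against 3.83%. It was 6.25%, against 1.91%, in windows of 51 bp and 25%, against 6.88%, in wider ones reaching 100 bp to either side. For the summits nearest to the member's own TSS it was 2 of 22 (9.09%, 2.53 to 27.8), an interval that takes in 3.83%. At eIF3a and eIF4E6 another gene's TSS was nearer. GGTCACACT was in 2 (6.25%, 1.73 to 20.1), against 1.95%: eIF2alpha and beta-PheRS. The order turned in the lists of replicate 1 and replicate 2 alone, where it was in 0% of member windows, against 1.79% and 1.86%, and in windows of 51 bp, with 0%, against 1.01%. Neither eIF2alpha nor beta-PheRS had a promoter summit past the threshold in either replicate alone. CACGTG, the E box bound by Myc among others, was in 0 of 32 (0 to 10.7), against 1.01%. Median GC content of the windows was 45.0% for the members, against 42.6%.

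Where the core was present, the centre of its nearest match lay 3.5 to 47.5 bp from the summit. The windows reach only 50 bp, and no such distances over all promoter summits are given here. That centre lay 3.5 bp from the summit at TrpRS, 6.5 bp at eIF4G2, 7.5 bp at eIF4EHP and AspRS, 8.5 bp at LysRS and 10.5 bp at ThrRS and eEF1alpha2. The distance was 12.5 bp at beta-PheRS, 13.5 bp at eIF3a, 14.5 bp at eIF2alpha and 22.5 bp at eIF4E6. It was 25.5 bp at eRF3, 30.5 bp at eEF1gamma, 35.5 bp at eIF2beta and 47.5 bp at eIF1. Of the 10 members with the highest promoter signal, the windows of eIF4E6, eIF4EHP, ThrRS, eEF1gamma, eEF1alpha2 and eIF1 held a core, and those of eIF6, eEF5, IleRS and eEF1alpha1 did not. A match is a count of letters and does not show which protein bound.

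**Figure D4:**
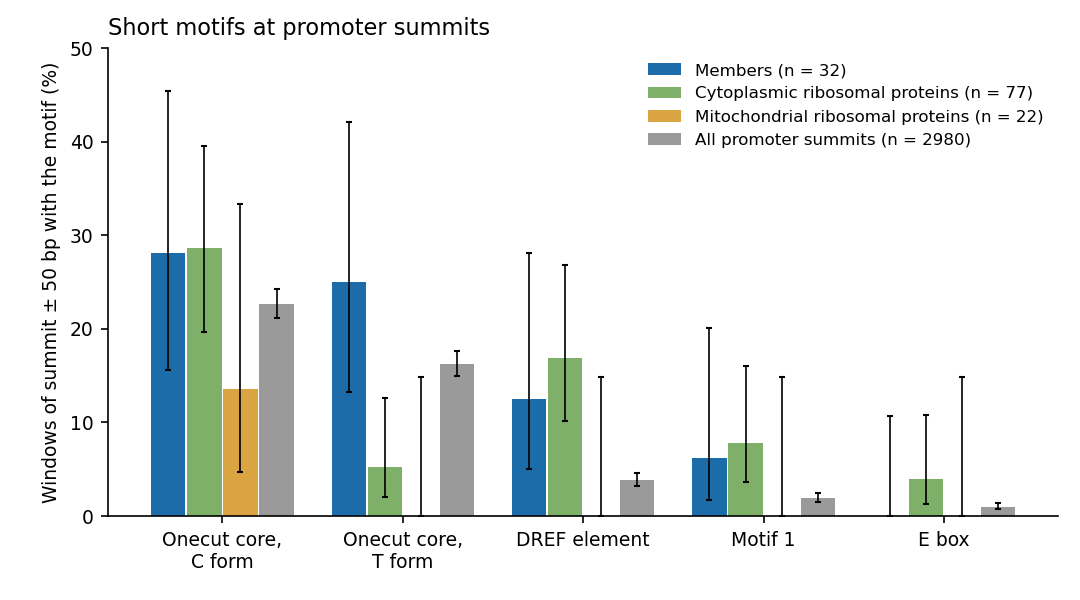
Share of promoter summit windows, 50 bp to either side of the summit, in percent, that hold each motif on either strand, for member summits (blue), cytoplasmic ribosomal protein summits (green), mitochondrial ribosomal protein summits (yellow) and all promoter summits (grey). The C and T forms of the Onecut core are ATCGAT and ATTGAT, and error bars are 95% Wilson intervals, drawn alone where the share is 0. Member windows hold the T form in 25%, against 5.19% in cytoplasmic ribosomal protein windows and 16.2% in all, and the DREF element in 12.5%, against 16.9% and 3.83%.

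Promoters were also searched as fixed stretches from 250 bp before to 50 bp after the gene's 5′ end, whether or not they had a summit. TATCGATA was in 20 of the 89 members (22.5%), against 9.36% of all protein-coding genes. Of these 20, 10 had a promoter summit (50%), against 30.4% of the members without the element, and over all genes the shares were 34% with it and 22.3% without. ATCGAT was in 39.3% of the members, against 23.3%, and ATTGAT in 23.6%, against 21.4%. Over all genes, 22.7% of those with ATTGAT had a promoter summit, against 23.6% of those without. GGTCACACT was in 8.99% of the members, against 6.05%, and 25% of the members with it had a promoter summit, against 35.8% of those without. CACGTG was in 6.74%, against 4.2%. eIF1A, eIF2Bbeta, eIF2gamma, eIF3f1, eIF3l, eEF1delta and eRF1 had TATCGATA in this stretch. None of them had a promoter summit in the conservative list or in the thresholded list of either replicate.

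Set beside the ribosome itself, the members lay between its 2 gene groups. Promoter summits were found at 34.8% of members, 78.5% of the 93 cytoplasmic ribosomal protein genes (69.1 to 85.6) and 30.1% of the 73 mitochondrial ones (20.8 to 41.4). The interval of the members does not overlap that of the cytoplasmic ribosomal protein genes and overlaps that of the mitochondrial ones. Median promoter signal was 188.3 at the members, 295.0 at the cytoplasmic and 124.5 at the mitochondrial ribosomal protein genes. The windows also differed in letters: ATTGAT was in 25% of member windows (13.3 to 42.1) and in 5.19% of cytoplasmic ribosomal protein windows (2.04 to 12.6), intervals that do not overlap. For the summits nearest to the member's own TSS the share was 18.2% (7.31 to 38.5), which does overlap, and in the fixed promoter stretches ATTGAT was in 23.6% of members and 18.3% of cytoplasmic ribosomal protein genes.

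Other genes of the pathway gave mixed counts. Of 18 genes that control translation, 8 had promoter summits (44.4%, 24.6 to 66.3), against 23.4% of all protein-coding genes. They were larp (878.9), pAbp (591.4), the poly(A)-binding protein, NAT1 (385.7), an eIF4G relative, Rheb (322.6), Thor (200.2), the inhibitor that binds eIF4E1, Lk6 (189.2), the kinase of eIF4E, Gcn2 (161.1), a kinase of eIF2alpha, and Myc (74.4). At Rheb and Gcn2 another gene's TSS was nearer, and with the own TSS nearest 6 of 18 had a summit (33.3%, 16.3 to 56.3), against 18.7%. The kinase S6k, its regulator raptor and the stress kinase PEK had none. Of 6 genes for synthetase complex parts and tRNA maturation 1 had a summit, Mt2 (78.4), and of 4 for ribosome rescue and recycling 2, pix (90.9) and pelo (80.6). Of 9 mitochondrial translation factor genes 1 had a summit, mIF2 (171.2).

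By chromosome arm, members with a promoter summit were 7 of 12 on 2L, 6 of 21 on 2R, 5 of 22 on 3L, 10 of 22 on 3R, 0 of 1 on 4 and 3 of 11 on X. The share over all protein-coding genes ran from 20.9% on X to 28.8% on 4. The highest share of members was on 2L (58.3%) and the lowest among arms with 10 or more members on 3L (22.7%).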

How the data were processed

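Onecut ChIP-seq peaks of 2 biological replicates of whole embryos were used as deposited. Per the file headers, held in accompanying read-me texts, the authors made the lists from alignments of the replicates and of a control. Aligner, peak caller, versions and depth are not given in the sources consulted here. The precision that depth sets is thus unknown. The deposited signal of a peak has no stated scale. The deposited score is the scaled IDR, and the deposited −log10 of the IDR in the ranked lists was turned into IDR. Each deposited summit offset, counted from the peak start, gave the summit position.

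Summits on the 6 arms were joined to protein-coding genes of Ensembl release 115 and to sequence of the Release 6 assembly, both in dm6 coordinates, with Python 3.11.15 and numpy 2.4.6, and figures were drawn with matplotlib 3.10.9. The joins were tested on simulated summits. Genes named in full were the 10 members with the highest promoter peak, elongation and release factors with a summit, related copies, and members with no replicate's summit or with that of 1 replicate. Other members described, and the printed sequences among those the rule allows, were chosen after their values were seen. Members and lists were chosen with earlier results of these data known. The alternatives covered other lists, each replicate alone, stricter thresholds, other windows and ownership of the summit. The symbols Tor, Larp, SLIMP and Dnmt2 matched no gene of the annotation. Signal tracks were not used here.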

Additional observations from a re-analysis of the deposited data

How the results depend on the processing

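By the wider rule, which reaches 1000 bp upstream, the number of members with a summit (37) was 24 with the stronger 50% of peaks (27%, against 20.1% of all genes), 59 in the ranked list of both replicates (66.3%, against 56.3%), 13 with 0 bp upstream (14.6%, against 17.3%, so that the order turned) and 23 where the member's TSS had to be the nearest (25.8%, against 23.6%). In the lists of single replicates it was 29 to 35. The number with a promoter summit (31) was 19 with the stronger 50% of peaks (21.3%, against 13.8%), and 24 to 30 in the lists of single replicates. In alternatives chosen after seeing the data it was 14 with no other gene's TSS within 500 bp (15.7%, against 13%) and 20 where both replicates' lists had to hold it. The 10 cytoplasmic synthetase genes were 6 with the member's TSS nearest, an alternative also added after seeing the data. The 2 mitochondrial synthetase genes were 0 to 1 in the lists of single replicates, 1 in the pooled list and 1 with the member's TSS nearest. The share of windows with TATCGATA (12.5%) was 18.2% to 20.8% in the lists of single replicates, 6.25% in windows of 51 bp and 25% in windows reaching 100 bp to either side, all inside its interval. The share with GGTCACACT (6.25%) was 0 in windows of 51 bp and 0 in the list of each replicate alone. It came from 2 windows, of eIF2alpha and beta-PheRS, which had no promoter summit in either replicate's own thresholded list. Their matches were centred 38 and 28 bp from the summit, so windows of 51 bp do not hold them whole. The median signal percentile (58.1) was 56.5 to 72.4 in the lists of single replicates. Apart from these 2 GGTCACACT windows and the fewer peaks that stricter rules keep, the cause of these changes was not tested. In all, 44 alternatives stayed within 1.5 times the count, within the interval of the share or, for the percentile in the pooled list, at 50.1. No paired analysis was possible because the 2 replicates form 1 group. The depth is unknown, so a missing peak shows only that none was listed.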

Other observations

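A pyrimidine-rich initiator, the start site of many ribosomal protein genes, was looked for after the data were seen, as CCTTTC or CCTTTT, or the same with T as its first letter, on the gene's strand with its second base within 5 bases of a TSS. It was present in 8 members (8.99%), against 2.13% of all protein-coding genes and 59.1% of cytoplasmic ribosomal protein genes. The members were ThrRS, TyrRS, eEF2, eEF5, eIF3f1, eIF3i, eIF3m and eIF4A, and 4 of them (ThrRS, eEF2, eEF5 and eIF4A) had a promoter summit. Over all genes 42.4% of those with the initiator had a promoter summit, against 23% of those without. Among cytoplasmic ribosomal protein genes the shares were 78.2% with it and 78.9% without.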
